A study of Elaeis guineensis with 38 samples.

Results

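Of 5888 regions with a peak in at least 1 list, 290 had H3K4me3 in most of the normal oil palms studied and H3K27me3 in most of them. The peaks of all 19 peak lists, 24560 in number, were merged wherever they shared at least 1 base. A merged region was kept when at least 3 of the 5 normal H3K4me3 lists and at least 3 of the 5 normal H3K27me3 lists had a peak in it. The marks were counted apart, so their lists could come from different palms. Both marks in most palms, normal or mantled, is meant in this sense throughout. The 290 regions lay on 255 pieces of 217 numbered scaffolds and covered 437367 bp, with a median width of 1116 bp and a range of 269 to 8399 bp. The peaks of the normal palms chose the regions, so their presence in those lists is a description and was not tested. The 9 lists of mantled palms took part in the merging and were not counted by the rule. A mantled peak could join separate normal peaks into 1 region, which then has a mantled peak by construction. How many of the regions depend on this was not counted.

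Chromatin of leaf (frond 0) was immunoprecipitated and sequenced (ChIP-seq) from 10 clonal plants of Elaeis guineensis raised from 1 ortet, the palm that was cloned. Mantling is an abnormality of some tissue-cultured palms, whose flowers bear carpel-like organs in place of stamens. The mantled palms were 673, 687, 754, 765 and 770, and the normal palms were 753, 758, 764, 767 and 768. All 10 palms gave an H3K27me3 library, and all but mantled palm 673 gave an H3K4me3 library, which left 4 mantled and 5 normal H3K4me3 lists and 5 of each for H3K27me3. Every immunoprecipitated library had its own input, sheared chromatin that was not immunoprecipitated, for 38 samples in all. The labels give no age, treatment or genotype beyond the clone. Each palm is a separate plant and was taken as a replicate, and all of them descend from the same mother palm.

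H3K4me3 is a histone mark of the start of active genes, laid down by Trithorax-group enzymes. H3K27me3 is laid down by Polycomb repressive complexes and marks genes that are kept silent, in plants often across the whole gene. Regions that carry both are called bivalent in mammalian embryonic stem cells, where they are known for genes held ready for later use. A peak list from whole leaf cannot tell whether both marks sit on the same nucleosome, on different copies or in different cells, so the text speaks only of regions with peaks of both marks.

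Depth and the behaviour of single lists bear on every count here. The fragments that entered a call ranged from 229258 to 7883375 in H3K4me3 libraries and from 253624 to 10374962 in H3K27me3 libraries. For comparison, 235 regions had H3K4me3 in at least 3 normal lists and H3K27me3 in 0 normal lists (H3K4me3-only), and 70 regions had the reverse (H3K27me3-only). The H3K4me3 list of mantled palm 765 had a peak at 98.3% of the H3K4me3-only regions, against 0.426, 0.851 and 1.28% in mantled palms 687, 754 and 770. In normal palms 753, 758 and 768 this share was 98.3, 100 and 92.3%, and in normal palms 764 and 767 it was 4.26 and 16.2%. The H3K4me3 list of mantled palm 754 had a peak at 91.4% of the H3K27me3-only regions and its H3K27me3 list at 8.57%. The H3K27me3 lists of mantled palm 765 and normal palm 768 each had a peak at 4.29% of them. The normal lists chose these sets, so their own shares follow in part from which lists supplied the regions. A low share sets a list apart from the suppliers of the set and cannot say which lists follow their label. In this sense these lists go against their labels or stand apart. The count of regions, the differences between shares and the comparisons of marks are given with and without lists that change them, and the other values include all lists.

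The regions ranged from barely chosen to present in every list. A peak was found in all 5 normal lists of both marks at 73 of the 290 regions, and 29 regions had exactly 3 lists of each mark. Presence in all 19 lists, mantled palms included, was seen at 46 regions. Just inside the rule, the regions with 3 and 3 lists and the highest median fold enrichment lay on p5.00_sc00042_p0135 from 3625 to 4707 and on p5.00_sc00003_p0238 from 4570 to 5202. Fold enrichment is the authors' ratio of a peak's pileup to its local background, and its medians there were 8.95 for H3K4me3 and 5.24 for H3K27me3 in the first and 5.91 and 6.25 in the second. Just outside, 102 regions had 3 H3K4me3 and 2 H3K27me3 lists, led by p5.00_sc01117_p0002 from 7930 to 8239 at 9.85 and 6.08 and p5.00_sc00167_p0040 from 13000 to 13276 at 9.12 and 3.67. Another 28 regions had 2 H3K4me3 and 3 H3K27me3 lists, led by p5.00_sc00019_p0128 from 17719 to 18172 at 6.96 and 4.63 and p5.00_sc00020_p0183 from 2500 to 3089 at 6.01 and 5.11. The enrichments on either side of the threshold overlapped.

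The count of regions rested on particular lists. Without the H3K27me3 lists of normal palms 767 and 768, 151 regions met the rule, now in all 3 H3K27me3 lists left. The H3K27me3 lists of palms 767 and 768 had a peak at 42.9 and 4.29% of the H3K27me3-only regions, the lowest shares among the normal H3K27me3 lists. The normal lists chose that set, so these shares cannot say that the lists are at fault. At the regions with both marks their shares were 92.8 and 76.2%, and that of palm 767 was the highest of the normal H3K27me3 lists. Without the H3K4me3 lists of normal palms 764 and 767 the count was 231, and without all 4 of these lists it was 110. Leaving out both lists of 1 normal palm gave 191 regions without palm 758 and 192 without palm 767. With fewer lists the rule asks for a larger share of them, so part of each fall follows from its construction.

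Most of the regions stood on very deep coverage. The pileup, the height of stacked fragments at a peak, was divided by the mean coverage that a list's fragments imply over the caller's genome size, and the median was taken over the normal lists with a peak. This scaled pileup was at least 10 at 285 of the 290 regions (98.3%, 95% Wilson interval 96.0 to 99.3%), with a median of 138 and a range of 6.53 to 1259. Its median was 18.8 at the H3K4me3-only regions, 54.6 at the H3K27me3-only regions and 19.7 over all 5888 regions. A cut of 10 therefore left 5 regions on its low side. A cut of 20 left 86.9% on the high side and a cut of 50 left 75.5%.

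The local background separated the regions more evenly. It is the coverage expected around a peak without enrichment, computed back from pileup and fold enrichment and scaled in the same way. Its median was 64.4 at the regions with both marks, against 5.81 at H3K4me3-only regions, 21.5 at H3K27me3-only regions and 6.06 over all regions. It was at least 10 at 229 regions (78.97%), called high-background here, and under 10 at 61, called low-background. In every one of the 19 lists, mantled ones included, the median background was higher at the regions with both marks than at all other regions, by 2.84 times in the H3K4me3 list of normal palm 764 up to 34.3 times in that of mantled palm 687. These multiples compare regions with one another. Copy number was not measured, and its part in the high background was not tested.

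**Figure D1:**
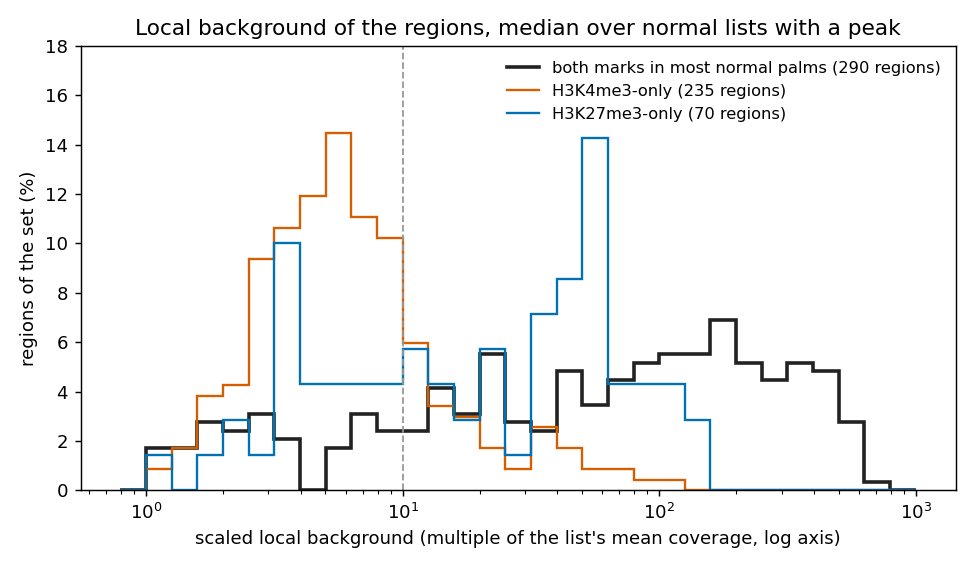
Distribution of scaled local background (multiple of a list's mean coverage, log axis, median over the normal lists with a peak) as the percentage of regions in each set. The 290 regions with both marks (black) reach from 1.02 to 662, with 229 of them right of the dashed line at 10, while H3K4me3-only regions (orange) centre on 5.81.

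Regions marked in more normal lists had a higher background. Its median was 13.6 at the 29 regions with 6 normal lists, 21.1 at the 62 with 7, 53.4 at the 66 with 8, 85.6 at the 60 with 9 and 206 at the 73 with all 10. Low-background regions made up 12 of the first 29 and 6 of the last 73. The rule set the number of lists, and these values describe the regions it chose.

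In mantled palms, most of the regions again carried both marks. Peaks of H3K4me3 in at least 3 of 4 mantled lists together with H3K27me3 in at least 3 of 5 were found at 183 of the 290 regions (63.1%), against 3.67% of all 5888 regions. H3K4me3 alone reached 3 mantled lists at 189 regions, against 4.13% of all regions, and H3K27me3 at 247 regions, against 10.8% of all regions. Of the 5598 regions outside the rule 33 had both marks in most mantled palms, and of the H3K4me3-only and the H3K27me3-only regions 0 had. H3K4me3 by itself reached 3 mantled lists at 0 of the 235 H3K4me3-only and 2 of the 70 H3K27me3-only regions. The first 0 was therefore fixed by H3K4me3, and the second count could not exceed 2. A peak in all 9 mantled lists was found at 53 of the 290 regions, and none of the 290 lacked a peak in every mantled list. Both marks in most mantled palms were found at 20.7% of the regions with 6 normal lists, 27.4% of those with 7, 59.1% of those with 8, 81.7% of those with 9 and 98.6% of those with 10. When 1 of the mantled palms with both marks is left out the rule asks for all 3 H3K4me3 lists that remain, and the count of 183 was then 119 without palm 687, 85 without palm 754, 91 without palm 765 and 62 without palm 770.

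List by list, the share of the 290 regions with a peak varied widely in both phenotypes. For H3K4me3 it was 47.2, 67.6, 79.0 and 82.8% in mantled palms 687, 754, 765 and 770, against 97.2, 94.8, 76.9, 71.4 and 86.6% in normal palms 753, 758, 764, 767 and 768. For H3K27me3 it was 72.8, 56.2, 85.5, 88.6 and 82.1% in mantled palms 673, 687, 754, 765 and 770, against 72.1, 82.8, 79.0, 92.8 and 76.2% in normal palms in the same order as before. The groups overlapped for both marks, and palm 687, whose libraries were the smallest of each mark, had the lowest share of both. Normal lists chose the regions, so the mean share of 69.1% ± 15.96 in mantled H3K4me3 lists (SD, n = 4) and of 77.0% ± 13.1 in mantled H3K27me3 lists (SD, n = 5) cannot be compared with the normal means of 85.4 and 80.6%.

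**Figure D2:**
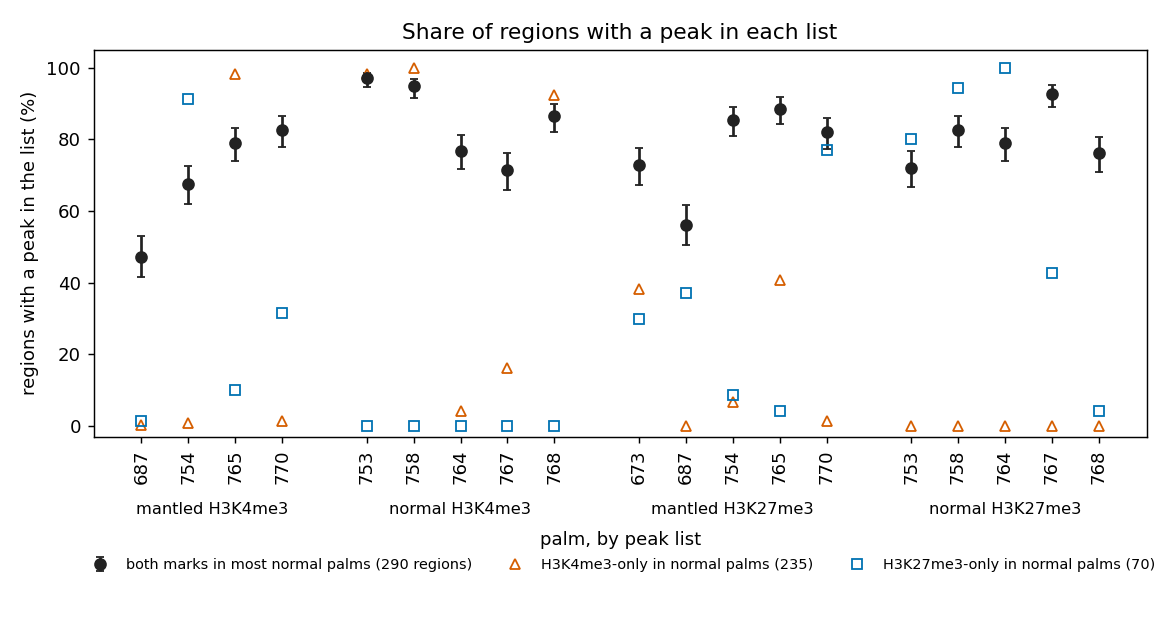
Percentage of regions with a peak in each of the 19 lists, grouped by phenotype and mark, for the 290 regions with both marks (black, with 95% Wilson intervals for counting error), the H3K4me3-only regions (triangles) and the H3K27me3-only regions (squares). The black points lie between 47.2 and 97.2% in every group, while the other sets split between lists of the same mark.

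The regions were marked with H3K27me3 more often than H3K4me3-only regions in all 5 mantled lists. The shares were 77.0% against 17.4% on average, a difference of 59.6 percentage points ± 19.99 (SD, n = 5, two-sided exact sign-flip p = 0.0625, adjusted p = 0.0938 over 6 tests). A p of 0.0625 is the smallest that 5 lists allow. The difference was 34.5 and 47.8 points in the H3K27me3 lists of palms 673 and 765, which had peaks at 38.3 and 40.9% of the H3K4me3-only regions, and 56.2 to 80.8 points in palms 687, 754 and 770. For H3K4me3, the regions exceeded H3K27me3-only regions in 3 of 4 mantled lists, with 69.1% against 33.6% and a difference of 35.6 points ± 40.8 (SD, n = 4, exact sign-flip p = 0.25, adjusted p = 0.3, smallest possible p = 0.125). The exception was palm 754, with 67.6% against 91.4%, and with its marks exchanged the difference was 60.8 points. The sets were defined by the same mark in normal palms of the same clone. Both comparisons therefore show only whether that definition carries over to mantled lists. Median local background also differed, at 64.4 against 5.81 (H3K4me3-only) and 21.5 (H3K27me3-only), and its part was not tested.

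Enrichment over background was modest at most of the regions. Over the 290 regions, the median of a region's H3K4me3 fold enrichment was 2.45 and that of its H3K27me3 fold enrichment was 2.03. In 18 of the 19 lists the median fold enrichment at these regions was lower than at all other regions, and in 19 of 19 the median peak was wider. The exception was the H3K4me3 list of normal palm 764, at 2.03 against 2.02. The lowest median fold enrichment, 1.34, was in the H3K27me3 list of mantled palm 673, the deepest library.

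High-background regions carried the weaker enrichments. Their median fold enrichment was 2.25 for H3K4me3 and 1.86 for H3K27me3, against 4.95 and 4.33 at low-background regions, and it was the lower of the pair in each of the 19 lists. Background is the denominator of the fold enrichment, so these measures are not independent. High-background regions were also wider, with a median width of 1316 bp against 727 bp. Their peaks rested on more fragments, with a median pileup of 308 fragments against 21.3.

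**Figure D3:**
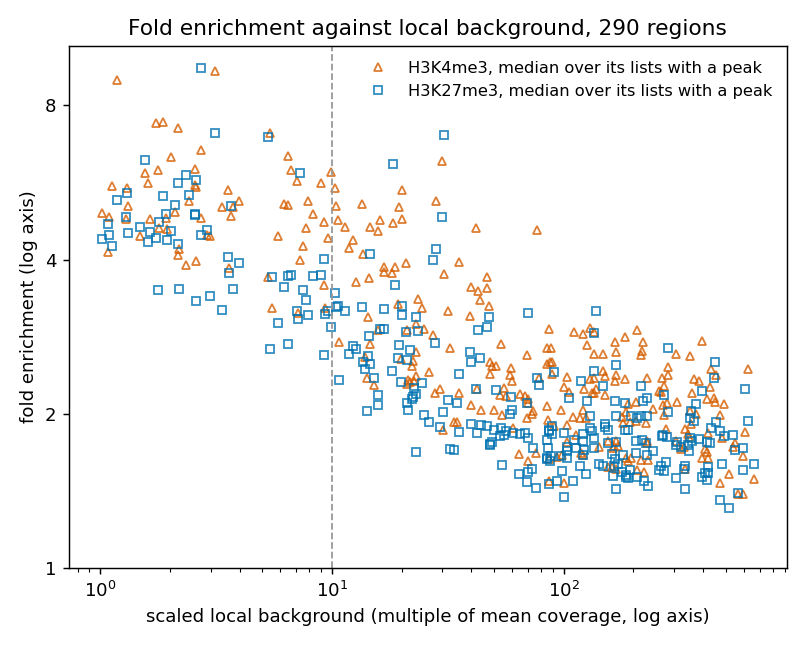
Median fold enrichment of each of the 290 regions over the lists with a peak (log axis) against its scaled local background (log axis), for H3K4me3 (triangles) and H3K27me3 (squares). Values lie between 2.61 and 9.46 left of the dashed line at a background of 10, and most lie near 2 at the right end.

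High-background regions were found again in mantled palms more often than low-background ones. They also met the rule more fully, with all 5 normal lists of both marks at 67 of 229 against 6 of 61. Background and the number of normal lists were not separated in these comparisons. Both marks in most mantled palms were seen at 158 of 229 high-background regions (69.0%) and at 25 of 61 low-background regions (41.0%), and the 46 regions present in all 19 lists were all high-background. For H3K27me3 the high-background share was the larger in all 5 mantled lists, by 26.1 points on average (exact sign-flip p = 0.0625). For H3K4me3 it was larger in palms 754, 765 and 770, at 71.2, 89.5 and 84.7% against 54.1, 39.3 and 75.4%, and smaller in palm 687, at 44.5% against 57.4%. The mean difference was 15.9 points (exact sign-flip p = 0.375), and it was 4.52 points without palm 765 and 25.5 points without palm 687. Left out in the same way, single palms moved the H3K27me3 difference to between 20.5 and 30.4 points. With the cut at a scaled pileup of 10, the 285 high regions exceeded the 5 low ones by 41.8 points ± 38.2 for H3K27me3 (SD, n = 5, exact sign-flip p = 0.0625, adjusted p = 0.0938) and by 29.6 points ± 41.0 for H3K4me3 (SD, n = 4, exact sign-flip p = 0.375, adjusted p = 0.375). For H3K4me3 the difference was 80.4 points in palm 765 and -12.6 points in palm 754, and its mean was 12.7 points without palm 765. The low class holds 5 regions, and the H3K27me3 difference was 13.5 points at a fold enrichment of at least 3 and 57.2 points without the H3K27me3 lists of palms 767 and 768.

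Within the 61 low-background regions a few lists had peaks at nearly separate sets of regions. This pattern was seen only after the lists had been examined and is given as counts, without a test. The H3K4me3 list of mantled palm 765 had a peak at 24 of the 61 regions, and that of mantled palm 754 at 33, but only 1 region was in both. The H3K27me3 list of normal palm 764 had a peak at 31, and again 1 was shared with the H3K4me3 list of palm 765. The H3K27me3 list of mantled palm 673 had a peak at 21, of which 20 were shared with the H3K4me3 list of palm 765.

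The 24 regions with H3K4me3 in palm 765 and the 37 without it differed most in a few lists. H3K27me3 of mantled palm 673 was at 20 of the 24 and 1 of the 37, and that of mantled palm 687 at 2 of the 24 and 28 of the 37. H3K27me3 of mantled palm 770 was at 9 of the 24 and 35 of the 37, and that of mantled palm 765 at 23 of the 24 and 17 of the 37. H3K4me3 of mantled palm 754 was at 1 of the 24 and 32 of the 37. The palm 673 list thus lay almost wholly within the first set, and the palm 754 H3K4me3 list and palm 687 H3K27me3 list almost wholly within the second. Other mantled lists were spread over both sets, with H3K27me3 of palm 754 at 18 of the 24 and 19 of the 37, H3K4me3 of palm 770 at 17 and 29, and H3K4me3 of palm 687 at 9 and 26.

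In normal palms, whose lists the rule used, H3K27me3 was at 19 of the 24 and 36 of the 37 in palm 753, 8 and 30 in palm 758, 1 and 30 in palm 764, 24 and 23 in palm 767, and 24 and 32 in palm 768. A region had to have 3 of these 5 lists, so one that lacked palms 758 and 764 could be chosen only with palms 753, 767 and 768. H3K4me3 of normal palms was at 24 of the 24 and 35 of the 37 in palm 753, 24 and 36 in palm 758, 7 and 19 in palm 764, 17 and 30 in palm 767, and 22 and 21 in palm 768. Most normal lists were therefore found in both sets. The median background was 6.48 at the 24 regions and 2.099 at the 37.

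**Figure D4:**
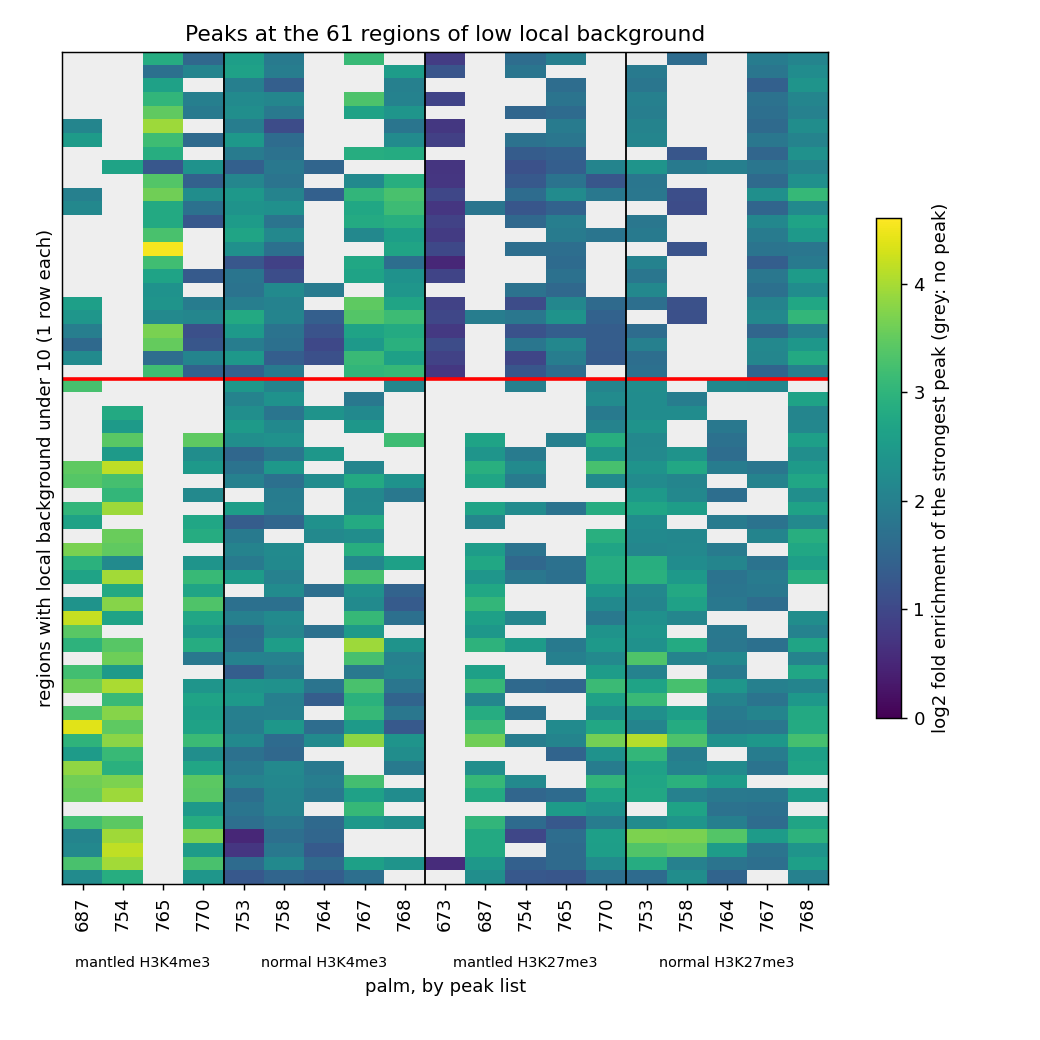
Peaks at the 61 low-background regions (1 row each) in the 19 lists, grouped by phenotype and mark, with colour for the log2 fold enrichment of the strongest peak and grey for no peak. The 24 rows above the red line have H3K4me3 in mantled palm 765 and are nearly empty in the H3K4me3 list of palm 754 and the H3K27me3 lists of palms 687 and 764, where most of the 37 rows below it have a peak.

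The same pairs of lists were also counted at high-background regions and outside the 290. At the 229 high-background regions, the H3K4me3 list of palm 765 had 205 and that of palm 754 had 163, with 139 in both, or 67.8% of the first and 85.3% of the second. None of the 229 lacked both, so 139 is the fewest shared regions that these counts allow. Over the 5598 other regions they had 3283 and 868 with 123 in both, or 3.75% and 14.2%. For the H3K4me3 list of palm 765 and the H3K27me3 list of palm 764, 175 of the high-background regions were in both (85.4% and 88.4%), and 282 of the other regions (8.59% and 29.0%). Each of these lists covers most high-background regions, and the shares there are no sign that the lists go together.

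Where a palm had both marks at a region, the peaks nearly always shared bases. Regions were built by merging peaks that share bases, so a high share follows in part from that construction. The share expected from it was not computed. In the 9 palms with both libraries, 93.7 to 100% of the regions with both marks in that palm had an H3K4me3 peak sharing bases with an H3K27me3 peak (median 99.5%). The lowest was normal palm 753, with 192 of 205. The summit of the strongest H3K4me3 peak lay inside an H3K27me3 peak at 84.4 to 98.95% of them. At low-background regions the share with common bases was 97.1 to 100%, and at high-background regions 91.4 to 100%. Counted over normal palms, 226 of the 290 regions had such overlapping peaks in at least 3 of the 5 palms and 72 in all 5, while 4, all high-background, had them in none. Requiring overlap in 3 normal palms left 168 regions with both marks in most mantled palms.

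The marks were compared at the 290 regions over all lists, which include the normal lists whose peaks chose the regions. Fold enrichment was taken at the summit of narrow H3K4me3 peaks and averaged over broad H3K27me3 peaks, so mark and mode cannot be told apart in this comparison or its alternatives. H3K4me3 fold enrichment had a geometric mean of 2.63 over 9 lists against 2.04 for H3K27me3 over 10 lists, a ratio of 1.29 (log2 difference 0.37, two-sided exact permutation p = 0.0271, adjusted p = 0.0812). The medians were 2.97, 3.32, 3.49 and 2.55 for H3K4me3 in mantled palms 687, 754, 765 and 770, and 2.11, 1.95, 2.03, 3.24 and 2.50 in normal palms 753, 758, 764, 767 and 768. For H3K27me3 they were 1.34, 2.48, 1.77, 1.84 and 2.09 in mantled palms 673, 687, 754, 765 and 770, and 2.83, 1.996, 1.80, 1.91 and 2.80 in the normal palms. The lists of the marks overlapped, and H3K4me3 was the higher in 6 of 9 palms, in all 4 mantled and in 2 of 5 normal ones. The permutation test took the lists as independent, though 9 palms carry both marks. Within palms the log2 difference ran from -0.43 in normal palm 753 to 0.92 in mantled palm 765. In the paired comparison within palms the adjusted p of the sign-flip test was not under 0.05. The rule did not count the mantled lists, though their peaks were merged. In them alone the geometric means were 3.06 over 4 H3K4me3 lists and 1.87 over 5 H3K27me3 lists (log2 difference 0.71, exact permutation p = 0.0159, adjusted p = 0.0952). With the marks of palm 754 exchanged the log2 difference over all lists was 0.17. The adjusted p was 0.0433 for regions in at least 4 of 5 normal lists of each mark, 0.0295 at a −log10 q of at least 5 and 0.0372 where peaks of the same palm shared bases. It was also under 0.05 without normal palm 753, 758 or 764, at 0.0138, 0.0199 and 0.0364.

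**Figure D5:**
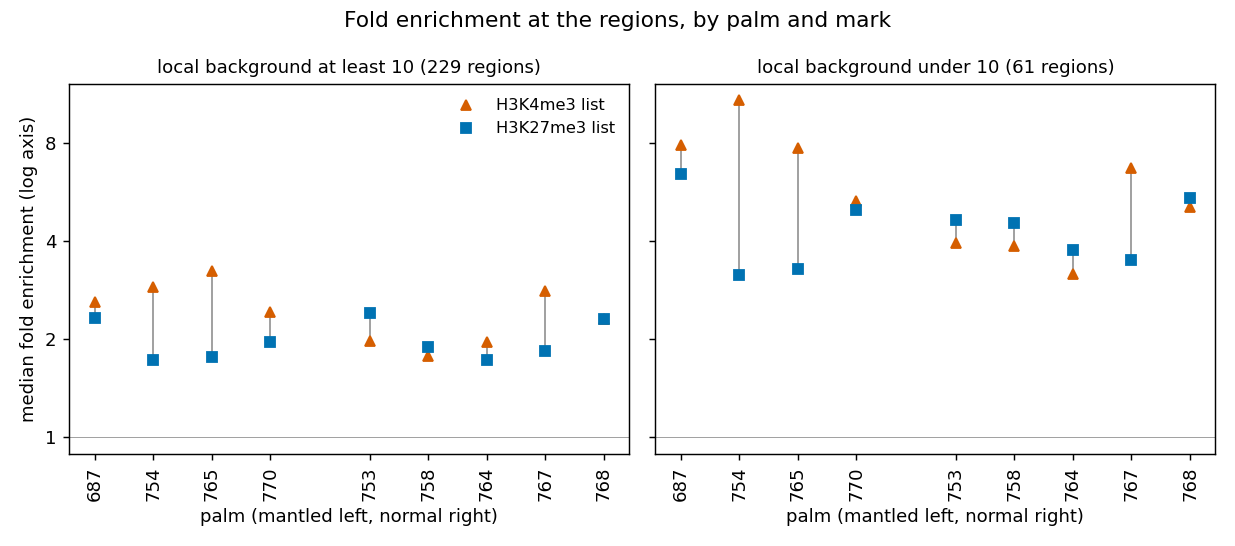
Median fold enrichment (log axis) of H3K4me3 (triangles) and H3K27me3 (squares) lists in each of the 9 palms with both, at the 229 high-background regions (left panel) and the 61 low-background regions (right panel). H3K4me3 lies above H3K27me3 in all 4 mantled palms in both panels, and in normal palms the order varies.

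The difference between the marks is given by phenotype without a test, because the rule counted normal lists and not mantled ones. The log2 ratio of H3K4me3 to H3K27me3 fold enrichment averaged 0.59 in the 4 mantled palms and 0.06 in the 5 normal palms, with overlap between the groups. In low-background regions the averages were 0.85 in mantled and 0.03 in normal palms. Depth moved with the ratio. The H3K4me3 library held 0.347 and 0.151 times the fragments of the H3K27me3 library in mantled palm 754 and normal palm 767, whose ratios were 0.91 and 0.76, and 10.5 and 8.72 times in normal palms 753 and 758, whose ratios were -0.43 and -0.04. In mantled palm 765 the ratio was 0.92 with 1.97 times the fragments. The part of depth in these ratios was not tested.

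H3K4me3 peaks were narrower than H3K27me3 peaks at the regions. The lists compared again include the normal ones whose peaks chose the regions. The geometric mean of the median width was 403 bp for H3K4me3 against 566 bp for H3K27me3, a ratio of 0.711 (log2 difference -0.49, two-sided exact permutation p = 0.00397, adjusted p = 0.0238, with 9 lists and 10 lists). The medians were 354, 409, 586 and 364 bp for H3K4me3 in mantled palms 687, 754, 765 and 770, and 423, 470, 329, 346 and 398 bp in normal palms 753, 758, 764, 767 and 768. For H3K27me3 they were 996, 449, 598, 557 and 525 bp in mantled palms 673, 687, 754, 765 and 770, and 386, 519, 769, 578 and 486 bp in the normal palms. H3K4me3 was the wider mark in 2 of 9 palms, mantled palm 765 and normal palm 753. The authors called H3K4me3 in narrow and H3K27me3 in broad mode, and mark and mode cannot be told apart here. The call was lost in the paired comparison within palms (log2 difference -0.40, exact sign-flip p = 0.0195, adjusted p = 0.117), with the marks of palm 754 exchanged, without the H3K4me3 lists of palms 764 and 767, and without mantled palm 754 or 770 (adjusted p = 0.0615 and 0.0634). In the mantled lists alone the log2 difference was -0.52 (exact permutation p = 0.0794, adjusted p = 0.119). When weaker peaks were dropped and those enriched at least 3 times were kept, the difference was 0.0080.

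The first region by the number of mantled lists, p5.00_sc00001_p0869 from 6536 to 7062, had a peak in all 19 lists on a background of 18.6. Its H3K4me3 fold enrichment was 9.97, 5.20, 3.06 and 4.46 in mantled palms 687, 754, 765 and 770, and 3.10, 4.83, 3.45, 3.88 and 3.78 in normal palms 753, 758, 764, 767 and 768. Its H3K27me3 fold enrichment was 1.47, 5.35, 3.51, 2.76 and 3.65 in mantled palms 673, 687, 754, 765 and 770, and 4.97, 3.72, 2.33, 2.42 and 3.97 in the normal palms. The phenotypes overlapped for both marks, and palm 687 was the highest for both. The next regions in this ranking were p5.00_sc00252_p0006 from 952 to 2038, p5.00_sc00087_p0065 from 15432 to 16887 and p5.00_sc00006_p0088 from 7551 to 7820, with backgrounds of 46.5, 42.6 and 39.6 and also with a peak in all 19 lists.

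Among low-background regions, none had all 9 mantled lists, and p5.00_sc00108_p0037 from 5605 to 7482 came first with 8. A narrow H3K4me3 peak lay there in a wide H3K27me3 peak, 220 to 777 bp against 1195 to 1630 bp over the lists. H3K4me3 fold enrichment was 9.72, 15.6 and 9.75 in mantled palms 687, 754 and 770, and 3.05, 4.51, 3.01, 6.09 and 5.21 in normal palms 753, 758, 764, 767 and 768. The mantled values were all above the normal ones, but mantled palm 765 had no H3K4me3 peak at all. Depth differed between these lists, and its part was not tested. H3K27me3 fold enrichment was 1.496, 5.46, 2.64, 3.03 and 4.63 in mantled palms 673, 687, 754, 765 and 770, and 7.21, 4.04, 3.41, 3.20 and 6.06 in the normal palms, with overlap between the groups. The ranking of low-background regions was added after values had been seen.

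The highest median H3K27me3 fold enrichment of all 290 regions, 9.46, was on p5.00_sc00512_p0005 from 489 to 809, where that of H3K4me3 was 6.56. Its peaks were nearly as wide as the region in every list that had one, 297 to 320 bp wide in a region of 321 bp. H3K4me3 fold enrichment was 7.93, 13.9 and 8.79 in mantled palms 687, 754 and 770, with no peak in palm 765, and 4.52, 3.06, 4.61, 14.1 and 5.19 in normal palms 753, 758, 764, 767 and 768. H3K27me3 fold enrichment was 12.2, 3.86, 4.23 and 12.4 in mantled palms 687, 754, 765 and 770, with no peak in palm 673, and 17.1, 10.0, 5.00, 5.40 and 9.46 in the normal palms. Both marks reached values over 10, in different palms, and the phenotypes overlapped. On p5.00_sc00019_p0203 from 2 to 656, the local background differed between the lists of a palm, at 47.9 for H3K4me3 and 2.41 for H3K27me3 in normal palm 753. In that palm its H3K4me3 fold enrichment was 1.42 and its H3K27me3 fold enrichment 13.0.

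The other low-background regions named by this ranking had peaks in 7 or 8 mantled lists. On p5.00_sc00185_p0008 from 10485 to 10948 the median fold enrichment was 7.23 for H3K4me3 and 5.64 for H3K27me3, and on p5.00_sc00050_p0167 from 9199 to 9701 it was 7.42 and 5.31. Palm 765 had H3K27me3 but no H3K4me3 at both. On p5.00_sc00193_p0008 from 9055 to 9924, H3K4me3 was present in palm 765 at 4.51 and in palms 687 and 770 at 5.32 and 4.34, but not in palm 754, and all 5 mantled H3K27me3 lists had a peak, at 1.97 to 5.15.

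The 5 regions with a scaled pileup under 10 all had a low background, from 1.02 to 1.49. It is scaled to the mean coverage over the caller's genome size of 221 Mb. The lowest background over all 5888 regions was 0.993. On p5.00_sc00009_p0134 from 11289 to 12205, H3K4me3 fold enrichment was 10.5 and 9.498 in mantled palms 687 and 754, and 4.07, 3.26, 4.69, 6.97 and 5.10 in normal palms 753, 758, 764, 767 and 768. H3K27me3 fold enrichment there was 6.49, 3.78 and 4.52 in mantled palms 687, 754 and 770, and 4.63, 4.28, 4.18 and 6.60 in normal palms 753, 758, 767 and 768. Mantled palms 765 and 770 had no H3K4me3 peak there, the values of the other mantled palms lay above the normal ones, and the H3K27me3 values overlapped. The H3K4me3 pileup was 12 and 14 fragments in mantled palms 687 and 754. It was 25, 62, 14, 11 and 19 in normal palms 753, 758, 764, 767 and 768. The part of depth in this difference was not tested. The others were p5.00_sc00074_p0023 from 3670 to 4604, p5.00_sc00410_p0024 from 8028 to 8661, p5.00_sc00080_p0019 from 2717 to 3259 and p5.00_sc00023_p0028 from 12890 to 13542, with a peak in 5, 3, 2 and 2 of the 9 mantled lists. None of the 5 had H3K4me3 or H3K27me3 in palm 765 or H3K27me3 in palm 673.

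The region found least often in mantled palms rested on few fragments in several lists. The last in rank of those with a scaled pileup of at least 10, p5.00_sc00075_p0096 from 11438 to 12175, had a peak in 1 of 9 mantled lists, the H3K27me3 list of palm 770, at a fold enrichment of 4.67. In normal palms it had H3K4me3 at 4.15, 5.06 and 3.60 in palms 753, 758 and 767 and H3K27me3 at 4.73, 3.86 and 6.29 in palms 753, 758 and 768. The pileup was 5 fragments in the H3K4me3 list of palm 767 and 5.43, 6.80 and 7.64 in the 3 H3K27me3 lists. Next were p5.00_sc00013_p0094 from 4417 to 5283 and p5.00_sc03228_p0002 from 1482 to 2514, each with a peak in 2 mantled lists.

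Regions that leaned to 1 phenotype were counted and not tested singly. H3K4me3 was present in all 5 normal and at most 1 of 4 mantled lists at 6 of the 290 regions, all high-background, against 0.645% of all 5888 regions. H3K27me3 was present in all 5 normal and at most 1 of 5 mantled lists at 0 of the 290, against 0.0170% of all regions. In each of the 6 the mantled list with H3K4me3 was that of palm 765, and H3K27me3 was present in 3 to 5 mantled lists. On p5.00_sc00559_p0002 from 2092 to 2577, H3K4me3 fold enrichment was 8.32 in mantled palm 765, with no peak in palms 687, 754 and 770, and 2.60, 2.23, 1.80, 3.22 and 3.17 in normal palms 753, 758, 764, 767 and 768. On p5.00_sc02746_p0001 from 11583 to 13032 it was 6.06 in palm 765, and 2.36, 1.85, 2.08, 2.96 and 2.87 in the normal palms. At all 6 regions palm 765 lay above the normal palms. The other 4 lay on p5.00_sc00016_p0009, p5.00_sc00202_p0004, p5.00_sc00202_p0005 and p5.00_sc00709_p0003, with 4.09 to 4.67 in palm 765. In the other direction, H3K4me3 was present in all 4 mantled and exactly 3 normal lists at 1 region, against 0.0170% of all regions, and H3K27me3 in all 5 mantled and exactly 3 normal lists at 9, against 0.170% of all regions. The rule used the normal lists, so nothing is read from these shares. A region needed 3 normal lists to be chosen, so gains larger than these could not appear.

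Most of the regions stood alone on their piece. A single region was found on 225 pieces, 2 on 26, 3 on 3 and 4 on 1. The 4 on p5.00_sc00702_p0003, from 40653 to 41651, 56101 to 57869, 59054 to 59722 and 69069 to 70626, had backgrounds of 103, 185, 443 and 350. The third of them had an H3K4me3 fold enrichment of 2.68, 7.03 and 2.59 in mantled palms 687, 754 and 770, with no peak in palm 765, and 1.32, 1.49, 1.97, 2.32 and 1.46 in normal palms 753, 758, 764, 767 and 768. The 3 on p5.00_sc01086_p0001 had backgrounds of 355, 135 and 103, and the 3 on p5.00_sc02265_p0003 of 276, 143 and 86.8. All 10 of these regions were high-background, with median fold enrichments of 1.48 to 2.61 for H3K4me3 and 1.46 to 2.35 for H3K27me3.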

How the data were processed

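Peaks were called by the authors with MACS2 2.1.1.20160309, each library against its own input, per the file headers. The headers show paired fragments, narrow mode for H3K4me3, broad mode for H3K27me3, a genome size of 221 Mb and at most 1 fragment kept per position. Alignment and quality control used Bowtie2 2.2.5, SAMtools 1.9 and FastQC 0.11.3, per the submitters' processing notes, which give no parameters. In the deposited lists pileup is a signal (fragments stacked on a base, at the summit of a narrow peak or averaged over a broad one). The fold enrichment that was deposited is the ratio of pileup to local background. The p and q values were deposited as −log10, and the smallest −log10 q is 1.30. Which genome build was used is not given in the sources used here. No gene, exon or sequence is therefore stated, and positions are those of the files, counted from 1.

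A region's value in a list is that of its strongest peak. Mean coverage is the header's fragments times fragment length over genome size. Local background was computed with the caller's pseudocount of 1. Intervals cover counting error only. Shares were compared by exact sign-flip tests over lists and marks by exact permutation tests over lists, adjusted by the Benjamini-Hochberg method over 6 tests, with Python 3.11.15, numpy 2.4.6, pandas 2.3.3, scipy 1.17.1 and statsmodels 0.14.6, and the code was tested on simulated data. Both marks of a palm come from the same plant, per the labels, so the marks are paired by palm. Over the 9 palms with both marks, the correlation of a palm's deviations from its group was -0.18 in fold enrichment and -0.22 in width. Regions were ranked within each pileup class by mantled lists with a peak, then by fold enrichment. The first 6 of the low and 4 of the high class, the last 3 of each, up to 3 pieces with most regions, and regions on either side of the rule were named. The regions, sets and classes were chosen with earlier results of these data known. Alternatives were stricter peaks, another merge, other lists and other cuts. Regions leaning to a phenotype were not tested singly.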

Additional observations from a re-analysis of the deposited data

Results flagged for a closer look

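Each group's lists were checked for 1 list far from the others in 7 measures at the 290 regions, 28 checks in all, and chance flags about 1 in 20. The median peak width at the regions was 996 bp in the H3K27me3 list of mantled palm 673, against 449 to 598 bp in the other 4 mantled H3K27me3 lists. This library held 10374962 fragments, the most of all, and had the lowest median fold enrichment at the regions, 1.34. The median scaled local background at the regions was 129 in the H3K27me3 list of mantled palm 687, against 76.5 to 90.9 in the other 4 mantled H3K27me3 lists. This library held 253624 fragments, the fewest of the H3K27me3 libraries, and had a peak at 56.2% of the regions. The part of depth in these values was not tested.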

How the results depend on the processing

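Of the 106 values obtained with 1 palm left out, 93 were counted as unchanged, and of the 109 other alternatives 84 were. For a tested difference this count asks only whether its sign and its call by adjusted p were kept. The sign-flip tests of shares have too few lists to be called at all. For them the count shows only that the sign held, and their sizes varied widely. Merging at 100 bp shared changed none of the 11 results. The count of 290 regions was 151 at 4 of 5 lists, 170 at a −log10 q of at least 5, 56 at a fold enrichment of at least 3, 151 without the H3K27me3 lists of palms 767 and 768, and 110 when the H3K4me3 lists of palms 764 and 767 were also left out. The share of high pileup was 99.3% at 4 of 5 lists, 100% at the q of 5, 92.9% at the fold enrichment of 3, 100% without all 4 lists, 100, 86.9 and 75.5% with cuts of 5, 20 and 50, and 78.97% by local background. At the fold enrichment of 3 the mantled H3K27me3 share was 42.5% and the regions with both marks in most mantled palms were 17. Without all 4 lists they were 90.9% and 99. The difference in fold enrichment passed at 0.35 (4 of 5 lists), 0.33 (q of 5) and 0.39 (peaks of a palm sharing bases). The width difference was 0.0080 at the fold enrichment of 3, -0.38 with the marks of palm 754 exchanged, -0.46 without the H3K4me3 lists of palms 764 and 767, -0.52 in mantled lists alone and -0.40 with the replicate block. With the replicate block the difference in fold enrichment was 0.30 and did not pass. The causes were not tested. The removals that include the H3K4me3 lists of palms 764 and 767, the mantled lists alone and the cut of 50 were chosen after seeing the data. Pileup classes could not be compared where no region was left in the low class: at the q of 5, at the cut of 5, without all 4 lists and without 1 palm in 2 cases.

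With 1 palm left out, the results ranged as follows: 191 to 290 regions, 97.0 to 100% high pileup, 64.6 to 77.9% H3K4me3 and 74.1 to 84.6% H3K27me3 in mantled lists, 62 to 172 regions with both marks in most mantled palms, 54.3 to 68.4 points over H3K4me3-only regions, 24.4 to 55.5 points over H3K27me3-only regions, 12.7 to 43.9 (H3K4me3) and 29.6 to 51.7 (H3K27me3) points between pileup classes, 0.29 to 0.45 in log2 fold enrichment and -0.61 to -0.41 in log2 width. Libraries of 229258 fragments limit what a missing peak says, since a peak not called at that depth may still hold signal.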
